A study of Homo sapiens with 15 samples.

Results

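The metallothionein genes MT2A, MT1X and MT1F and MTF1, the gene of their zinc-responsive activator, were followed in Caco-2 cells. Caco-2, derived from a human colon carcinoma, acquires features of absorptive enterocytes once confluent. The 4 genes were chosen by their symbol in the platform annotation, where each had 1 probe set, out of 14884 named symbols, of which 11804 lay above the filter on dim signal used for testing. All 4 lay above it. They were chosen with earlier results of these data known. Their counts below, set beside the shares of all genes, may therefore not be independent of these arrays. The 15 arrays comprised 5 of cells given 50 µM trans-resveratrol in ethanol 1 h before lipopolysaccharide (LPS+RSV), 5 of cells exposed for 48 h to 1 µg/mL LPS from E. coli K12 (LPS), and 5 of non-treated cells (control). All arrays came from the same line, grown for 15 to 19 days after seeding. The labels do not state whether LPS or control cells received ethanol, which array belonged to which day, or whether replicates were separate cultures, and the spread behind each p-value may therefore be technical. Values are log2 expression values after RMA, and 1 unit is a doubling.

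Metallothioneins are small cysteine-rich proteins that bind zinc and copper and buffer their free levels in the cell. They also bind cadmium and react with oxidants, and the intestinal epithelium makes more of them when zinc supply is high. MTF1 binds zinc through its zinc fingers, enters the nucleus and binds metal response elements, short DNA motifs repeated upstream of metallothionein genes. MT2A and the MT1 genes lie side by side on chromosome 16, while MTF1 lies on chromosome 1.

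The promoters of MT2A, MT1X and MTF1 are shown because these are the sequences through which MTF1 is known to act on its targets, with the MTF1 promoter beside them. They are RefSeq sequences of GRCh38.p14, from 250 bases before to 50 bases after the annotated start, written 5′ to 3′ on the gene's own strand, for 3 of the 4 members. Capitals mark each match on either strand to the core letters of the metal response element, TGCACNC or TGCGCNC. The MT2A window is chr16:56608334-56608633 (plus strand), the MT1X window chr16:56682220-56682519 (plus strand) and the MTF1 window chr1:37859543-37859842 (minus strand).
MT2A: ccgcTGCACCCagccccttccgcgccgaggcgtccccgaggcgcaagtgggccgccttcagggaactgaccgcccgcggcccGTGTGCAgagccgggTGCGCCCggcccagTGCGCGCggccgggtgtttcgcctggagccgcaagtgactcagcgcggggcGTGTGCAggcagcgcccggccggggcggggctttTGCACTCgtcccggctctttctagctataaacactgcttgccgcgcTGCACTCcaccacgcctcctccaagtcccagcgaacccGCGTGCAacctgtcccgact
MT1X: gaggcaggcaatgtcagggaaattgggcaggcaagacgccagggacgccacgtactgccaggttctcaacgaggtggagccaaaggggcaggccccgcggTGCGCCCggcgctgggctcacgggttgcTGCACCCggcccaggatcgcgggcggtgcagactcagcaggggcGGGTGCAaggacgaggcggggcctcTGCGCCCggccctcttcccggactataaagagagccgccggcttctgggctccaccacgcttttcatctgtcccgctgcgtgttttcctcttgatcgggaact
MTF1: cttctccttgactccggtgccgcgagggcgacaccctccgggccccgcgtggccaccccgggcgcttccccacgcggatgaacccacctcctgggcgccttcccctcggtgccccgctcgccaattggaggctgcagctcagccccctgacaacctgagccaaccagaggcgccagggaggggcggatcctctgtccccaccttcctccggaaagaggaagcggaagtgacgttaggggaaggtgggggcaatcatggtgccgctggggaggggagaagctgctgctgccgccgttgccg

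The MT2A window held 8 matches and the MT1X window 4, and these letters were not in the MTF1 window. Of 35116 promoters of the same length, 29.6% held at least 1 match, 0.601% at least 4 and 0.074% at least 6. Among the other metallothioneins with a sequence, MT1H held 8, MT1B 3 and MT4 3. A TATA box, TATAAA, stood in the MT2A and MT1X windows and in 11.5% of all promoters. The AP-1 letters TGACTCA stood in the MT2A window and in 4.95% of all promoters. Neither motif overlapped a metal response element match in these windows. A match describes the letters and does not show that a factor binds there.

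Array medians lay between 5.49 and 5.54, and the mean correlation of an array with the other 14 arrays across genes lay between 0.946 and 0.984, lowest for LPS+RSV replicate 1. Of the epithelial markers 5 of 6 had a named row, and all 5 lay above the filter. Their mean was 9.14 to 9.41 over LPS+RSV arrays, 9.27 to 9.52 over LPS arrays and 9.12 to 9.23 over control arrays, so that every LPS array lay above every control array; its part in the differences below was not tested. Of the enterocyte markers 7 of 11 had one and all 7 lay above it, among them VIL1, CDX2 and SI, with a mean of 9.01 to 9.97 over LPS+RSV arrays, 9.09 to 9.95 over LPS arrays and 9.14 to 9.83 over control arrays. Of the fibroblast markers 2 of 5 had a named row, LUM above the filter and DCN below it. Their mean lay between 3.64 and 4.72 in every array. Goblet, Paneth and immune markers had 1 named row each, TFF3 at 6.65 to 7.08, LYZ at 5.58 to 7.23 and CD68, a lysosomal protein, at 11.15 to 11.96, each with overlapping ranges in the 3 groups. Cell division genes differed between arrays: the mean log2 value of 19 of them spanned 7.46 to 8.83 over LPS+RSV arrays, 8.36 to 9.43 over LPS arrays and 7.30 to 8.86 over control arrays.

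**Figure D1:**
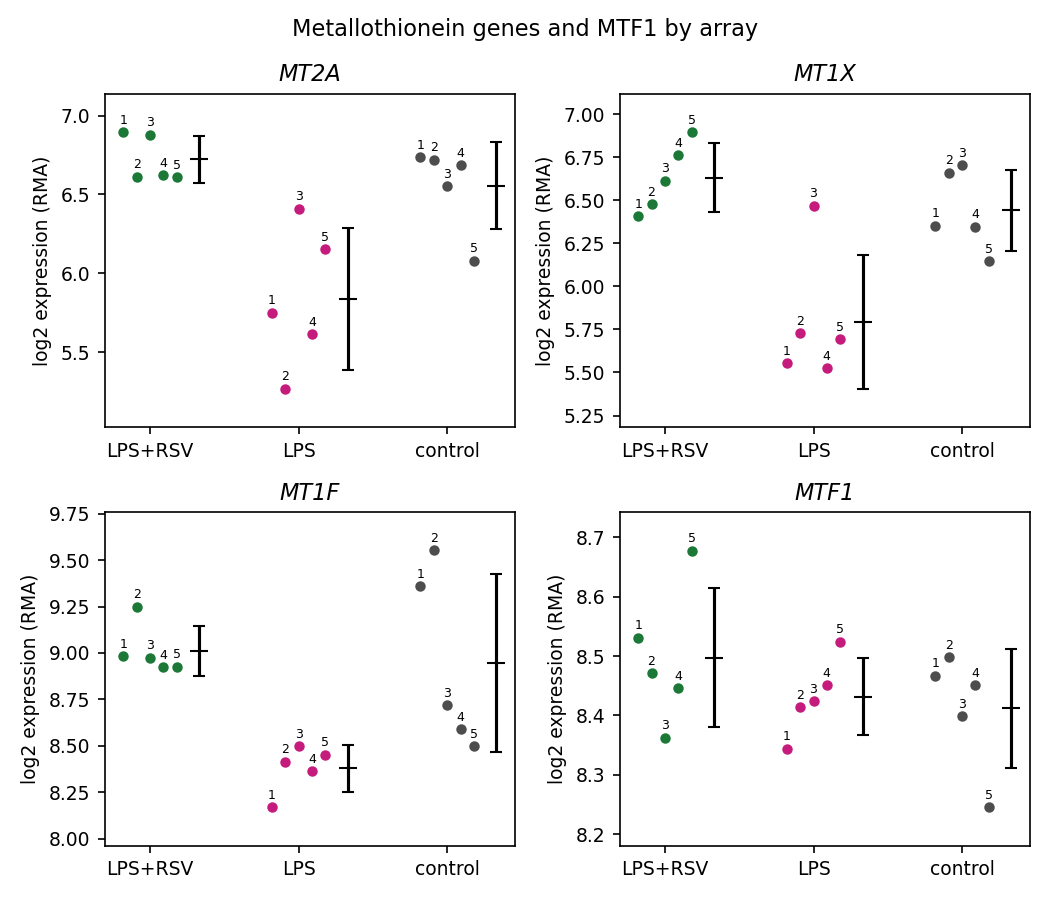
Log2 expression of MT2A, MT1X, MT1F and MTF1 in each array, with the replicate number above each point and a bar for the mean and SD of 5 arrays beside each group. LPS has the lowest mean for the 3 metallothioneins, LPS replicate 3 is the highest LPS array in each of them, and the ranges of MTF1 overlap in all groups.

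Metallothionein transcripts lay higher in resveratrol-pretreated LPS cells than in cells given LPS alone, and the transcript of MTF1 did not separate the groups. MT2A, the main inducible isoform of human cells, was 1.85-fold higher, MT1X 1.79-fold higher and MT1F 1.55-fold higher, while MTF1 differed by 0.07 on the log2 scale. MT2A and MT1X were dim in LPS, with means at percentile 21.7 and 20.4 of tested genes, against 81 for MT1F. In LPS+RSV MT2A and MT1X stood at percentile 47.1 and 44.6, and in control at 42.4 and 39.2. Their lowest LPS values, 5.27 and 5.52, lay below or within the span of the array medians, 5.49 to 5.54. By limma, 0 of the 4 genes passed an adjusted p of 0.05, where 0.0424% of all tested genes passed (5 of 11804). At an unadjusted limma p under 0.05, 3 of the 4 lay higher in LPS+RSV, against 8.08% of all genes higher and 10.5% lower. All 5 LPS+RSV arrays lay above all 5 LPS arrays for MT2A and MT1F, 2 of the 4 genes, against 1.41% of all genes. In bulk RNA a changed level per cell and a changed share of cells that make the transcript cannot be told apart.

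MT2A measured 6.90, 6.61, 6.88, 6.62 and 6.61 in LPS+RSV replicates 1 to 5, against 5.75, 5.27, 6.41, 5.61 and 6.15 in LPS replicates 1 to 5. The LPS+RSV arrays lay within 0.29 of each other, the LPS arrays spanned 1.14, and the groups did not overlap. The means were 6.72 ± 0.15 in LPS+RSV and 5.84 ± 0.45 in LPS (SD, n = 5 each). LPS+RSV minus LPS gave a log2 difference of 0.89 ± 0.18 (SE), with a 95% confidence interval of 0.50 to 1.27 and a limma adjusted p = 0.0667. An exact 2-sided permutation test gave p = 0.00794, the smallest that 5 arrays against 5 can give.

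MT1X, a metal-inducible MT1 isoform at the end of the cluster, measured 6.41, 6.48, 6.61, 6.76 and 6.90 in LPS+RSV, against 5.55, 5.73, 6.47, 5.52 and 5.69 in LPS. LPS replicate 3 lay 0.74 above the next LPS array and just above LPS+RSV replicate 1, so the groups overlapped by that array alone. The log2 difference was 0.84 ± 0.16 (SE), with an interval of 0.49 to 1.19, a limma adjusted p = 0.0649 and an exact permutation p = 0.0159. MT2A and MT1X ranked 26 and 19 by limma p among the 11804 genes.

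MT1F measured 8.98, 9.25, 8.97, 8.92 and 8.93 in LPS+RSV, against 8.17, 8.41, 8.50, 8.37 and 8.45 in LPS. The groups did not overlap, and each was narrow, with SDs of 0.14 in LPS+RSV and 0.13 in LPS. This amounted to a log2 difference of 0.63 ± 0.17 (SE), with an interval of 0.27 to 0.99, a limma adjusted p = 0.127 and an exact permutation p = 0.00794. The shared spread in this fit was larger than that of either group because the control arrays of MT1F varied more.

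MTF1 measured 8.53, 8.47, 8.36, 8.45 and 8.68 in LPS+RSV, against 8.34, 8.41, 8.42, 8.45 and 8.52 in LPS. The groups overlapped, with LPS+RSV replicates 1 and 5 above all 5 LPS arrays. The log2 difference of 0.07 ± 0.07 (SE) had an interval of -0.08 to 0.22, a limma adjusted p = 0.64 and an exact permutation p = 0.325. The upper end of that interval lay below the lower end for each metallothionein in the same fit.

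Whether MT2A and MT1X passed depended on which array was left out. LPS replicate 3 was the highest LPS array for all 3 metallothioneins. Without it the log2 difference was 1.03 for MT2A (limma adjusted p = 0.019) and 1.01 for MT1X (limma adjusted p = 0.00394). Without LPS+RSV replicate 2 the limma adjusted p was 0.0446 for MT2A and 0.0427 for MT1X, and 121 genes passed, against 5 in the main fit. The unadjusted limma p of the 2 genes was not smaller there, at 0.00028 and 0.000158, against 0.000154 and 0.000105 in the main fit. Their adjusted p stayed over 0.05 in the 8 refits that dropped a different array. LPS replicates 1 and 2 were also left out together, as earlier results, not given here, had set them apart. Their mean correlations with the other arrays, 0.978 and 0.976, lay among those of the remaining LPS arrays. Without both, the differences were 0.67 for MT2A, 0.74 for MT1X and 0.57 for MT1F, with limma adjusted p of 0.323, 0.323 and 0.339. A fit without LPS+RSV replicate 1 gave differences of 0.84 for MT2A, 0.89 for MT1X and 0.64 for MT1F.

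**Figure D2:**
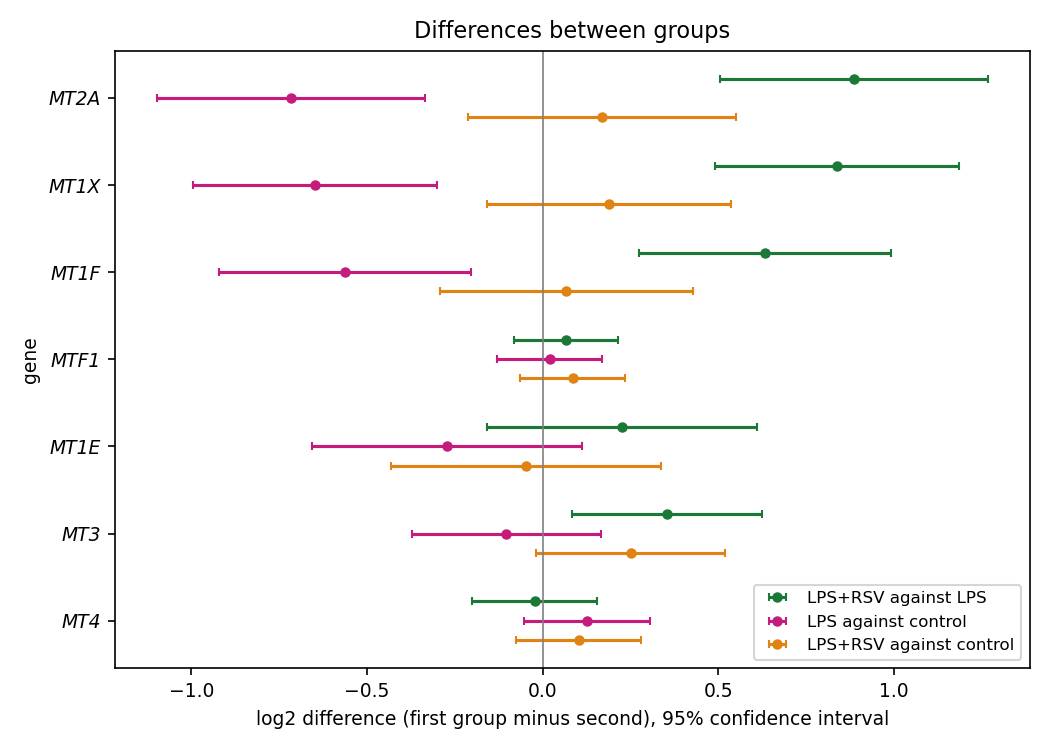
Log2 differences between groups, first-named group minus second, with 95% confidence intervals from limma, for the 4 genes and for 3 other metallothionein rows above the filter. MT2A, MT1X and MT1F lie above 0 in LPS+RSV against LPS and below 0 in LPS against control, and intervals for LPS+RSV against control include 0 for all 7 genes.

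Metallothionein transcripts lay lower in cells given LPS alone than in non-treated cells. MT2A stood at 0.608 of its control level, MT1X at 0.638 and MT1F at 0.677, whereas MTF1 differed by 0.02 on the log2 scale. By limma, 0 of the 4 passed an adjusted p of 0.05, against 0.0254% of all genes (3 of 11804). At an unadjusted limma p under 0.05, 3 of 4 were lower in LPS, against 3.26% of all genes lower and 4.62% higher. All 5 LPS arrays lay below all 5 control arrays for MT1F, 1 of the 4 genes, against 1.13% of all genes. This comparison and that of LPS+RSV with LPS use the same 5 LPS arrays, so that their opposite signs are not independent of each other.

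The LPS values of MT2A given above compare with 6.74, 6.72, 6.55, 6.69 and 6.08 in control replicates 1 to 5. Only LPS replicates 3 and 5 reached the control range, through control replicate 5, which lay 0.47 below the next control array. The means were 5.84 ± 0.45 in LPS and 6.56 ± 0.28 in control (SD, n = 5 each). The log2 difference was -0.72 ± 0.18 (SE), with an interval of -1.10 to -0.34, a limma adjusted p = 0.29 and an exact permutation p = 0.0238.

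MT1X in control measured 6.35, 6.66, 6.70, 6.35 and 6.15, and 4 of the 5 LPS arrays lay below all of these. The exception was LPS replicate 3, at 6.47. The means were 5.79 ± 0.39 in LPS and 6.44 ± 0.23 in control (SD, n = 5 each), and the log2 difference of -0.65 ± 0.16 (SE) had a limma adjusted p = 0.29 and an exact permutation p = 0.0317. Without LPS replicate 3 it was -0.82, with a limma adjusted p = 0.0277.

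MT1F in control measured 9.36, 9.55, 8.72, 8.59 and 8.50, so that control replicates 1 and 2 lay well above the other control arrays. The highest LPS array, 8.4978, lay just under the lowest control array, 8.4995. The means were 8.38 ± 0.13 in LPS and 8.94 ± 0.48 in control (SD, n = 5 each). The log2 difference was -0.56 ± 0.17 (SE), with an interval of -0.92 to -0.21, a limma adjusted p = 0.351 and an exact permutation p = 0.00794. Without control replicate 2 it was -0.41, and without control replicate 5 it was -0.67.

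MTF1 in control measured 8.47, 8.50, 8.40, 8.45 and 8.25, and 4 of the 5 LPS arrays lay within that range, with LPS replicate 5 just above it. The log2 difference of 0.02 ± 0.07 (SE) had an interval of -0.13 to 0.17, a limma adjusted p = 0.977 and an exact permutation p = 0.754. Leaving out LPS replicate 5 or control replicate 5 turned its sign, to -0.0038 and -0.0222.

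Between LPS+RSV and control the metallothioneins lay close together. The log2 differences were 0.17 ± 0.18 for MT2A, 0.19 ± 0.16 for MT1X, 0.07 ± 0.17 for MT1F and 0.09 ± 0.07 for MTF1 (SE). Without control replicate 5, the lowest control array for all 4 genes, they were 0.0499, 0.1156, -0.0438 and 0.0438 in the same order, and refits without 1 array gave 0.0499 to 0.2144 for MT2A, 0.1156 to 0.2550 for MT1X, -0.0438 to 0.2192 for MT1F and 0.0404 to 0.1193 for MTF1. By limma 0 of the 4 passed, against 0% of all genes (0 of 11804), and 0 of the 4 had an unadjusted p under 0.05, against 4.09% of all genes higher and 6.4% lower. None of the 4 genes separated the groups, where 0.627% of all genes did so upwards and 1.09% downwards. The 95% intervals were -0.21 to 0.55 for MT2A, -0.16 to 0.54 for MT1X and -0.29 to 0.43 for MT1F, so that a difference as large as that between LPS+RSV and LPS lay outside the interval for each. The exact permutation p was 0.302 for MT2A, 0.19 for MT1X, 0.77 for MT1F and 0.294 for MTF1. Each gene was thus tested in 3 comparisons, 12 tests in all, and the exact p-values are not adjusted for that number. In order of level, LPS+RSV came first for all 4 genes, followed by control and LPS for the metallothioneins and by LPS and control for MTF1, and LPS+RSV and control did not differ beyond their spread.

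Spread also differed by gene and group. Pooled within groups, the SD was 0.316 for MT2A, 0.286 for MT1X and 0.296 for MT1F, against a median of 0.158 over all tested genes, and 0.0968 for MTF1. The mean of the 3 metallothioneins ranged from 7.43 to 7.49 over the LPS+RSV arrays, from 6.47 to 7.13 over the LPS arrays and from 6.91 to 7.64 over the control arrays. The LPS+RSV arrays therefore lay much closer together than those of the other groups on this mean. Single genes spread more: LPS+RSV ranges were 0.29 for MT2A, 0.49 for MT1X and 0.33 for MT1F. In the same order they were 1.14, 0.94 and 0.33 in LPS and 0.66, 0.56 and 1.05 in control. LPS+RSV replicate 1 was the highest of its group for MT2A and the lowest for MT1X, which cancels in the mean. With each group centred, MT2A and MT1X correlated over the 15 arrays at Pearson r = 0.51 (permutation p = 0.148, adjusted p = 0.364 over 10 relations; Spearman rho = 0.304, permutation p = 0.333, adjusted p = 0.476), and r was 0.251 without the 2 arrays farthest out. The other pairs among the 4 genes had r between 0.257 and 0.434 and did not pass either. Probe sets of near-identical metallothionein genes can also share signal, which was not tested.

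Other metallothioneins were named for 8 of the 14 symbols searched, and 3 of these, MT1E, MT3 and MT4, lay above the filter. MT1B, MT1G, MT1H, MT1L and MT1M lay below it, with array values between 2.95 and 4.68. Of the 3 tested, 0 passed limma's adjusted p in any comparison. Their median log2 difference was 0.22 in LPS+RSV against LPS and -0.10 in LPS against control, where the median over all genes was 0.01 in each.

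MT1E, a widely expressed MT1 isoform, measured 6.77, 6.06, 5.73, 5.84 and 5.73 in LPS+RSV, against 5.77, 5.65, 5.92, 5.96 and 5.71 in LPS and 5.65, 6.17, 6.16, 5.92 and 6.48 in control. LPS+RSV replicate 1 stood above the rest of its group, and all 3 groups overlapped. The log2 difference was 0.22 ± 0.18 in LPS+RSV against LPS (limma adjusted p = 0.521) and -0.27 ± 0.18 in LPS against control (limma adjusted p = 0.772).

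MT3, known chiefly from brain, averaged 6.26 ± 0.27 in LPS+RSV, 5.90 ± 0.13 in LPS and 6.01 ± 0.23 in control (SD, n = 5 each). It differed by 0.35 ± 0.13 between LPS+RSV and LPS, with an unadjusted limma p of 0.0132 and a limma adjusted p = 0.176. MT4, known from stratified squamous epithelium, averaged 7.34 ± 0.15 in LPS+RSV, 7.37 ± 0.11 in LPS and 7.24 ± 0.12 in control. It differed by -0.02 ± 0.08 between LPS+RSV and LPS (limma adjusted p = 0.909).

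**Figure D3:**
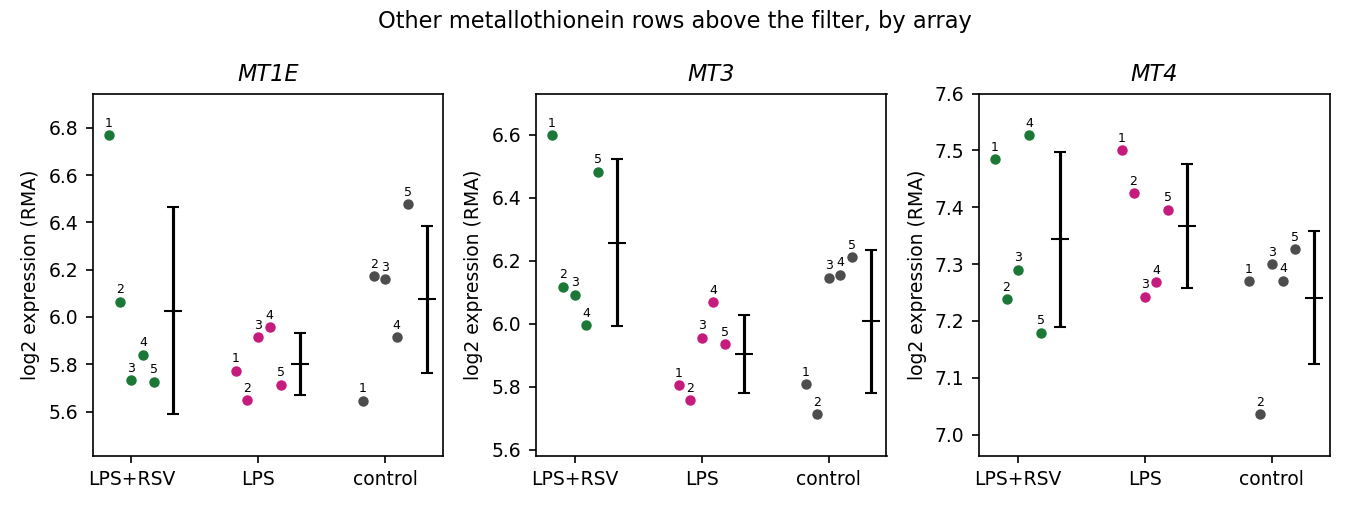
Log2 expression of MT1E, MT3 and MT4 in each array, with replicate numbers and a bar for the mean and SD of 5 arrays beside each group. The 3 groups overlap for MT1E and MT4, and 4 of the 5 MT3 values in LPS+RSV lie above the highest LPS value of 6.07.

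Metal handling beyond metallothioneins was covered by lists of zinc, copper and iron genes. None of the 24 zinc transporter symbols (10 exporters and 14 importers) had a row named here. Of 16 copper genes, 8 were tested and 0 passed limma's adjusted p in any comparison; at an unadjusted p under 0.05, 2 were higher in LPS+RSV than in LPS (8.08% of all genes) and 1 was lower in LPS than in control (3.26% of all genes). ATOX1, the chaperone that hands copper to the copper ATPases, averaged 7.60 ± 0.08 in LPS+RSV, 7.39 ± 0.08 in LPS and 7.54 ± 0.08 in control (SD, n = 5 each). It differed by 0.21 ± 0.06 in LPS+RSV against LPS (limma adjusted p = 0.144), with no overlap of arrays (1.41% of all genes), and by -0.15 ± 0.06 in LPS against control (limma adjusted p = 0.587). CCS, which loads copper onto superoxide dismutase, differed by 0.26 ± 0.08 in LPS+RSV against LPS (limma adjusted p = 0.153) and by -0.13 ± 0.08 in LPS against control (limma adjusted p = 0.75).

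Of 12 iron genes, 5 were tested and 0 passed the adjusted limma p in any comparison. HFE, which takes part in iron sensing, differed by 0.24 ± 0.09 in LPS+RSV against LPS (limma adjusted p = 0.181), and TFR2, a transferrin receptor of iron sensing, by -0.14 ± 0.08 (limma adjusted p = 0.38). In LPS against control TFR2 differed by 0.23 ± 0.08 and HFE by -0.09 ± 0.09. The median of the list was 0.07 in LPS+RSV against LPS and -0.02 in LPS against control.

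Further lists covered other signals known to act on metallothionein genes, namely oxidants, heat shock and glucocorticoids. Of 9 tested oxidative stress genes, 0 passed the adjusted limma p in any comparison. NFE2L2, which encodes the oxidant-responsive factor NRF2, averaged 7.71 ± 0.33 in LPS+RSV, 8.29 ± 0.04 in LPS and 7.98 ± 0.10 in control (SD, n = 5 each). It differed by -0.58 ± 0.12 in LPS+RSV against LPS (limma adjusted p = 0.0667) and by 0.31 ± 0.12 in LPS against control (limma adjusted p = 0.543). All 5 LPS arrays of NFE2L2 lay above all arrays of the other groups, where 1.39% of all genes lay lower in LPS+RSV than in LPS without overlap and 1.08% higher in LPS than in control. OSGIN1, an oxidant-induced gene, differed by 0.10 ± 0.12 in LPS+RSV against LPS, and SRXN1, which repairs oxidised peroxiredoxins, by 0.27 ± 0.13 in LPS against control.

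Of 6 tested heat shock genes, 0 passed the adjusted limma p in any comparison, and at an unadjusted p under 0.05, 3 were higher and 1 lower in LPS+RSV than in LPS, against 8.08% and 10.5% of all genes. HSPA1A and HSPA1B, near-identical genes of the inducible chaperone HSP70 whose probe sets may share signal, differed by 0.32 ± 0.10 and 0.27 ± 0.09 in LPS+RSV against LPS (limma adjusted p of 0.158 and 0.164). In LPS against control HSF1, the heat shock transcription factor, differed by 0.15 ± 0.07 and BAG3, a cochaperone, by 0.16 ± 0.10. Of 8 tested glucocorticoid response genes, 0 passed. FKBP5, a hormone-induced cochaperone, differed by -0.37 ± 0.17 in LPS+RSV against LPS and by 0.34 ± 0.17 in LPS against control, and ERRFI1, a feedback inhibitor of the EGF receptor, by -0.48 ± 0.19 and 0.32 ± 0.19.

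Genes of the same lists in LPS+RSV against control were those with the smallest p: CCS and ATOX1 differed by 0.13 ± 0.08 and 0.06 ± 0.06, HAMP and HFE by 0.13 ± 0.07 and 0.15 ± 0.09, and NFE2L2 and KEAP1 by -0.27 ± 0.12 and 0.18 ± 0.09. HSPB1 and HSPH1, both chaperones, differed by 0.21 ± 0.09 and -0.25 ± 0.13, and ZBTB16 and PER1 by 0.33 ± 0.12 and 0.13 ± 0.09. None of these 10 passed the limma adjusted p.

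Cell division genes lay opposite to the metallothioneins between groups. The median log2 difference over the 19 tested was -0.72 in LPS+RSV against LPS, where all 19 lay below 0, and 0.62 in LPS against control, where all 19 lay above 0. By limma 0 passed the adjusted p in either comparison, and 13 and 7 had an unadjusted p under 0.05, where 10.5% of all genes lay lower in LPS+RSV than in LPS and 4.62% higher in LPS than in control at that p. MKI67, the Ki-67 proliferation antigen, differed by -1.07 ± 0.34 and CDK1, the mitotic kinase, by -1.47 ± 0.48 in LPS+RSV against LPS. PLK1 and CCNB1, both of mitotic entry, differed by 0.84 ± 0.33 and 0.82 ± 0.36 in LPS against control, and CDK1 and TOP2A by -0.56 ± 0.48 and -0.40 ± 0.44 in LPS+RSV against control.

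With the 3 groups pooled, the relation within groups ran the other way for MT1F. Over the 15 arrays with each group centred, MT1F varied with the cell division mean (Pearson r = 0.709, permutation p = 0.00701, adjusted p = 0.0701 over 10 relations; Spearman rho = 0.596, permutation p = 0.0323, adjusted p = 0.323), and r was 0.617 without the 2 arrays farthest out. It did not pass the adjustment. In control, MT1F and the cell division mean were both highest in replicates 1 and 2 and lowest in replicate 5. In LPS, replicates 4 and 5 had the highest cell division means, 9.29 and 9.43. Their MT1F values, 8.37 and 8.45, lay among those of the other LPS arrays, 8.17 to 8.50. In LPS+RSV, replicate 2 was highest in both. MT2A had r = 0.295, MT1X r = -0.164 and MTF1 r = 0.273 with the same mean. With the cell division mean as a covariate, a fit added after the data were seen, MT1F differed by 0.92 in LPS+RSV against LPS (limma adjusted p = 0.033) and by -0.79 in LPS against control (limma adjusted p = 0.0286). MT2A differed by 1.02 and -0.82 in that fit (limma adjusted p of 0.0612 and 0.0657) and MT1X by 0.77 and -0.60 (limma adjusted p of 0.125 and 0.126). The covariate was itself measured after treatment. Its range in LPS (8.36 to 9.43) overlapped only in part with those in LPS+RSV (7.46 to 8.83) and control (7.30 to 8.86). The adjusted differences therefore rest in part on extending the slope within groups beyond the values shared by the groups compared. That slope was common to the 3 groups, and whether it held in each was not tested.

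**Figure D4:**
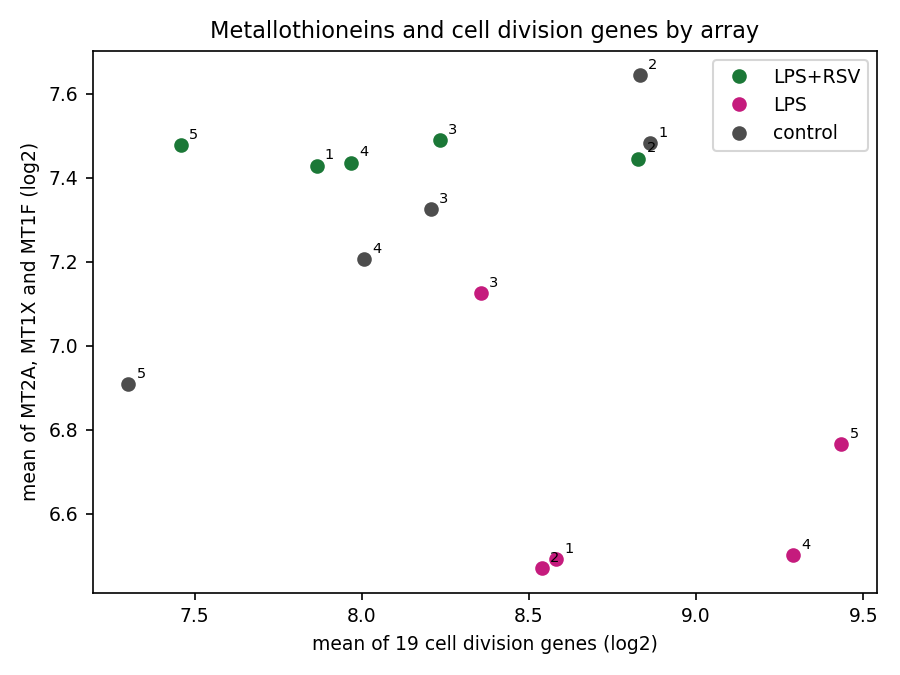
Mean log2 value of MT2A, MT1X and MT1F against the mean log2 value of 19 cell division genes, 1 point per array with its replicate number. LPS+RSV arrays hold a narrow band from 7.43 to 7.49 across cell division means from 7.46 to 8.83, LPS arrays lie at 6.47 to 7.13, and control arrays span 6.91 to 7.64, lowest where the cell division mean is lowest.

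The genes whose pattern was most like the mean of MT2A, MT1X and MT1F over the 15 arrays, by Pearson r, were ULBP3 (0.916), BBS2 (0.885), ZNF580 (0.879), ASIC1 (0.878) and ZSCAN26 (0.873). ULBP3 encodes a ligand of the natural killer receptor NKG2D, BBS2 a subunit of the ciliary BBSome, ASIC1 an acid-sensing channel, and ZNF580 and ZSCAN26 zinc finger proteins. With each group centred their r lay between 0.551 and 0.743. For MTF1 the r was 0.371, and 0.46 with groups centred. The most opposite were NOX1 (-0.876), GMPPB (-0.872), INPP1 (-0.847), FLJ36000 (-0.845) and ARCN1 (-0.827). NOX1 encodes a superoxide-producing oxidase of colon epithelium, GMPPB an enzyme of GDP-mannose synthesis, INPP1 an inositol phosphatase and ARCN1 a subunit of the COPI vesicle coat. NOX1 differed by -1.94 in LPS+RSV against LPS and by 2.03 in LPS against control, and the other 4 by amounts from -0.40 to -0.14 and from 0.12 to 0.37. The genes most like and most opposite were picked by r over the same 15 arrays. The signs of their differences follow largely from that choice, and their r with groups centred follows from it in part.

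**Figure D5:**
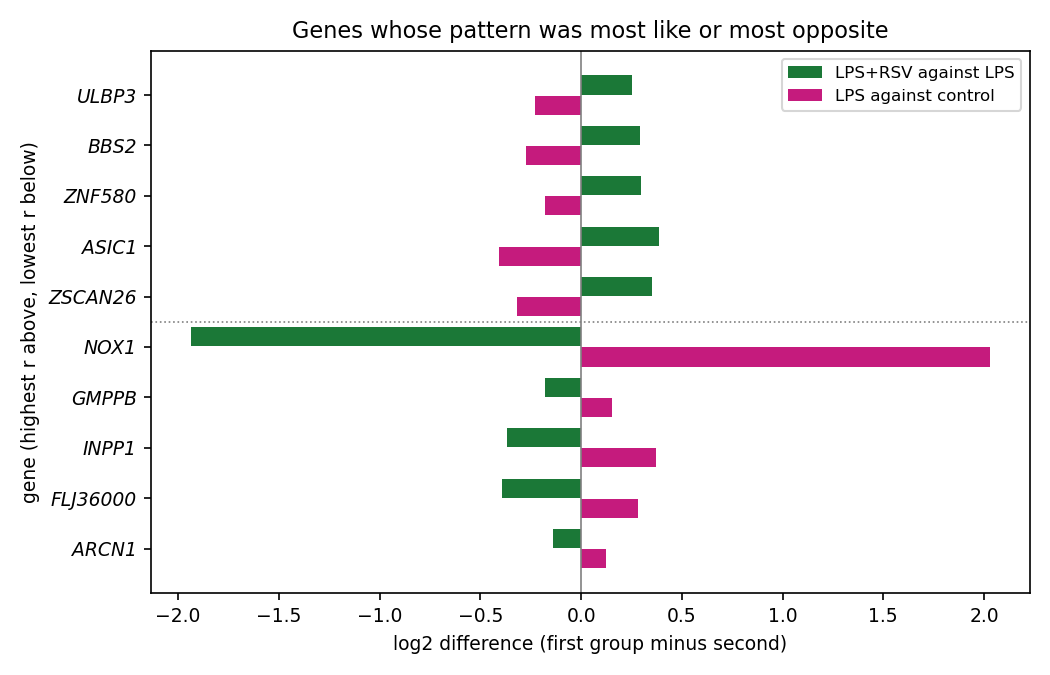
Log2 differences, first-named group minus second, for the 5 genes most like the metallothionein mean (above the dotted line) and the 5 most opposite (below it), without error bars. The upper 5 lie at 0.25 to 0.39 in LPS+RSV against LPS and at -0.41 to -0.18 in LPS against control, and NOX1 has the longest bars. The signs follow largely from how the genes were picked.

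BBS2 is also the protein-coding gene next to the metallothionein cluster, on the MT4 side, in RefSeq's gene order. It averaged 8.83 ± 0.09 in LPS+RSV, 8.54 ± 0.09 in LPS and 8.81 ± 0.06 in control (SD, n = 5 each). All 5 LPS arrays lay below all arrays of the other groups. Among all genes, 1.41% lay higher in LPS+RSV than in LPS without overlap, and 1.13% lower in LPS than in control. BBS2 was picked for its correlation with the metallothionein mean, itself low in LPS, so this separation follows in part from that choice. The log2 difference was 0.29 ± 0.06 in LPS+RSV against LPS (limma adjusted p = 0.0712) and -0.27 ± 0.06 in LPS against control (limma adjusted p = 0.22). Its neighbours were looked at after this was seen: of 12 protein-coding genes within 500 kb of the cluster, 5 were tested, and BBS2 was the 1 gene higher in LPS+RSV than in LPS and lower in LPS than in control. NUDT21 differed by -0.19 ± 0.12, OGFOD1 by -0.09 ± 0.07, NUP93, on the other side of the cluster, by -0.30 ± 0.14 and CPNE2 by -0.04 ± 0.08 in LPS+RSV against LPS, and 0 of the 5 passed the adjusted limma p.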

How the data were processed

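Whole-transcript arrays were hybridised with labelled cDNA from 300 ng of total RNA per sample. The deposited values are log2 expression values that the authors made with RMA, per the submitters' processing notes; the RMA version and the genome build were not given in the sources used here. Of 53617 rows, 16098 had 1 gene symbol in the platform annotation, 0 had several and 37519 were unnamed here. Each symbol was represented by its brightest row. Genes above the 40th percentile of an array's rows in at least 5 of 15 arrays were kept. Group means were estimated together from the 15 arrays by limma 3.58.1 (lmFit and eBayes, R 4.3.3), with Benjamini-Hochberg adjustment over 11804 genes and a threshold of 0.05. All limma adjusted p-values come from this fit unless stated. Exact permutation tests used all 252 divisions of 10 arrays, and correlations 100000 permutations within groups. RMA shrinks differences of dim probe sets, and the number of arrays limits the precision.

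The members and gene lists were chosen with earlier results of these data known. Text names the members, all other metallothionein rows, the 2 genes of smallest p per list and comparison where none was called, and the 5 genes of highest and lowest correlation. Code was tested on simulated data. Alternatives varied filter, rows per gene, normalization, moderation, array weights, groups fitted, replicate number as a block, and arrays left out.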

Additional observations from a re-analysis of the deposited data

Results flagged for a closer look

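Of the 12 sets of 5 arrays, 4 genes in 3 groups, 3 held an array whose gap to its nearest neighbour was large for the range of its group (Dixon's criterion), where chance gives about 1 in 20. MT2A in control replicate 5 was 6.08, below the other control arrays, with a gap of 0.717 of the range. MT1X in LPS replicate 3 was 6.468, above the other LPS arrays, with a gap of 0.785 of the range. MT1F in LPS+RSV replicate 2 was 9.25, above the other LPS+RSV arrays, with a gap of 0.818 of the range; that array also had the highest cell division mean of its group, 8.83. Control replicate 5 was lowest for all 4 genes in control and had the lowest cell division mean of all arrays, 7.30. Whether these go together was not tested beyond the correlations above.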

How the results depend on the processing

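The 12 differences of the 4 genes kept their direction and their side of the threshold in most refits. None of the 12 was called in the first place (limma adjusted p 0.0649 to 0.977), so a call could only be gained. The limma adjusted p of MT2A and MT1X in LPS+RSV against LPS was 0.201 for each in a fit to the 2 groups, and 0.112 and 0.0787 with the replicate block. For MT1F it was 0.0764 in the fit to the 2 groups and 0.146 with the replicate block, against 0.127 in the main fit. In LPS+RSV against LPS, refits without 1 array gave 0.74 to 1.03 for MT2A and 0.77 to 1.01 for MT1X, called without LPS replicate 3 or LPS+RSV replicate 2. Without LPS+RSV replicate 2 the unadjusted limma p of both genes was not smaller than in the main fit. MT1X also passed with array weights, at 0.87 (limma adjusted p = 0.0483). In LPS against control refits without 1 array gave -0.82 to -0.58 for MT1X, called without LPS replicate 3, and -0.0222 to 0.0413 for MTF1, whose sign turned. In LPS+RSV against control MT1F ranged from -0.0438 to 0.2192, and its sign turned without control replicate 4 or 5. With the cell division mean as a covariate, added after the data were seen, MT1F was called at 0.92 in LPS+RSV against LPS and at -0.79 in LPS against control, and MTF1 in LPS against control turned to -0.0092. That covariate was measured after treatment, and its range in LPS overlapped only in part with those in LPS+RSV and control. The cause of these changes was not tested.

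Counts of called genes were less stable. In LPS+RSV against LPS the 5 calls became 14 with cyclic loess, 25 with array weights, 0 in a fit to the 2 groups, 1 without LPS replicates 1 and 2, 13 with the covariate, and 1 to 121 without 1 array. In LPS against control the 3 calls became 1 with median centring, 15 with array weights, 0 in a fit to the 2 groups, 60 with the covariate, and 1 to 10 without 1 array. In LPS+RSV against control the count was 0 under all alternatives.

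With the replicate number as a block, the counts were 3 in LPS+RSV against LPS and 6 in LPS against control, and 0 of the 4 genes changed call. The labels do not say that a number marks a shared culture or day, and not every same-numbered pair correlated above 0.1 in any comparison. Same-numbered deviations correlated at -0.37 to 0.10, -0.54 to 0.12 and -0.44 to 0.71 in the 3 comparisons (LPS+RSV against LPS, LPS against control, LPS+RSV against control), and 0, 0 and 3 of 5 arrays correlated best with their own number; in LPS+RSV against control, 3 of 5 pairs were above 0.1, which is a hint from the data and not from the design.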
